A study of Mus musculus with 8 samples.

Results

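Cyclin-dependent kinase 5, its activators and related kinases were followed in the striatum of 8 mice aged 22 months. The 7 genes are Cdk5, Cdk5r1, Cdk5r2, Cdk16, Cdk17, Cdk18 and Cdk19, taken from 18193 genes on the array, and they are represented by 19 of its 45037 non-control probe sets. A probe set, the array's unit of measurement, was included when the platform annotation gave it exactly 1 gene symbol and that symbol was on the list. The genes were chosen on the strength of their values in the same 8 arrays, with the difference between mutant and wild-type mice already known, so that difference is a description below. Counts past a threshold, standard errors and intervals come from the fit over all genes, and they test nothing about genes chosen on this contrast. The 4 mutants were CHL2 knock-in mice, in which 150 CAG repeats taken from the first exon of the human Huntington's disease gene were knocked into the endogenous Htt gene, and they were homozygous (Q150/Q150). The 4 wild-type mice were of the same age, and all 8 animals were of the strain given as C57BL/6 X CBA F1 hybrid. Mutant mice 141, 153 and 154 were female and mutant mouse 191 was male. Wild-type mouse 161 was female and wild-type mice 170, 180 and 200 were male. Each mouse gave 1 array of whole striatal RNA, and all values are log2 signals.

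Cdk5 differs from most cyclin-dependent kinases in that it is active in neurons that no longer divide and is switched on by non-cyclin partners. Those partners are p35, encoded by Cdk5r1, and p39, encoded by Cdk5r2, and the protease calpain can cut p35 to a longer-lived fragment. In striatal projection neurons the kinase is known for phosphorylating Ppp1r1b, the dopamine- and cAMP-regulated phosphoprotein, and it also phosphorylates huntingtin. Cdk16, Cdk17 and Cdk18 form the PCTAIRE family of kinases related to Cdk5, of which Cdk16 is activated by cyclin Y. Cdk19 and its paralogue Cdk8 pair with cyclin C in the kinase module of Mediator, the complex that links transcription factors to RNA polymerase.

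The arrays were closely alike, with medians between 4.95 and 4.98 and correlations of 0.990 to 0.996 within groups and 0.983 to 0.991 between them over all probe sets. Mouse 170 stood apart in RNA quality. The 3′ minus 5′ difference of its Gapdh control was 1.37, against 0.32 to 0.43 in the other 7 mice, and that of its beta-actin control was 2.65, against 1.23 to 1.51. Of 9 medium spiny neuron markers measured, all were above a log2 signal of 5 in at least 1 mouse. That level is close to the array medians, so passing it does not identify the tissue. Htt itself, a substrate of Cdk5, had a mean of 7.28 ± 0.16 in the mutants and 7.86 ± 0.07 in the wild type (SD, n = 4 each). It fell 1.59-fold, with an adjusted p of 0.00101 by limma.

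Of the 7 genes, Cdk5r1, Cdk5r2, Cdk17 and Cdk19 were counted among the genes with a lower signal in the mutants at the threshold of the fit over all genes, an adjusted p under 0.05, and 0 among those with a higher signal. As a description, the shares of all genes counted in this way were 6.01% lower and 6.4% higher, or 12.4% in either direction, and nothing is read from the comparison because the genes were selected on this contrast. The groups of 4 mice did not overlap for those same 4 genes, where 20.7% of all genes had groups apart. At the level of single probe sets, 6 of 19 were lower past the threshold, beside 3.44% of all probe sets, and 8 of 19 had groups apart, beside 15.4%. The 6 became 0 without mutant 191 and 2 without wild-type mouse 161. The median sex-adjusted difference was -0.38 over the 7 genes and 0.01 over all genes. Left without mutant 191, the count of 4 genes became 1, Cdk5r2, and without wild-type mouse 161 it became 1, Cdk19. Each of these mice is the only one of its sex in its group. With the sex term kept, a difference without mouse 191 is therefore that among the females, against mouse 161 alone. A difference without mouse 161 is that among the males, with mouse 191 as the only mutant. In a fit without the sex term, all 4 genes stayed past the threshold with either mouse left out. Of the 19 probe sets, 4 lay under a log2 signal of 5 in all 8 mice, where hybridisation is near background. These were 1 each for Cdk5 and Cdk5r2 and 2 for Cdk16.

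**Figure D1:**
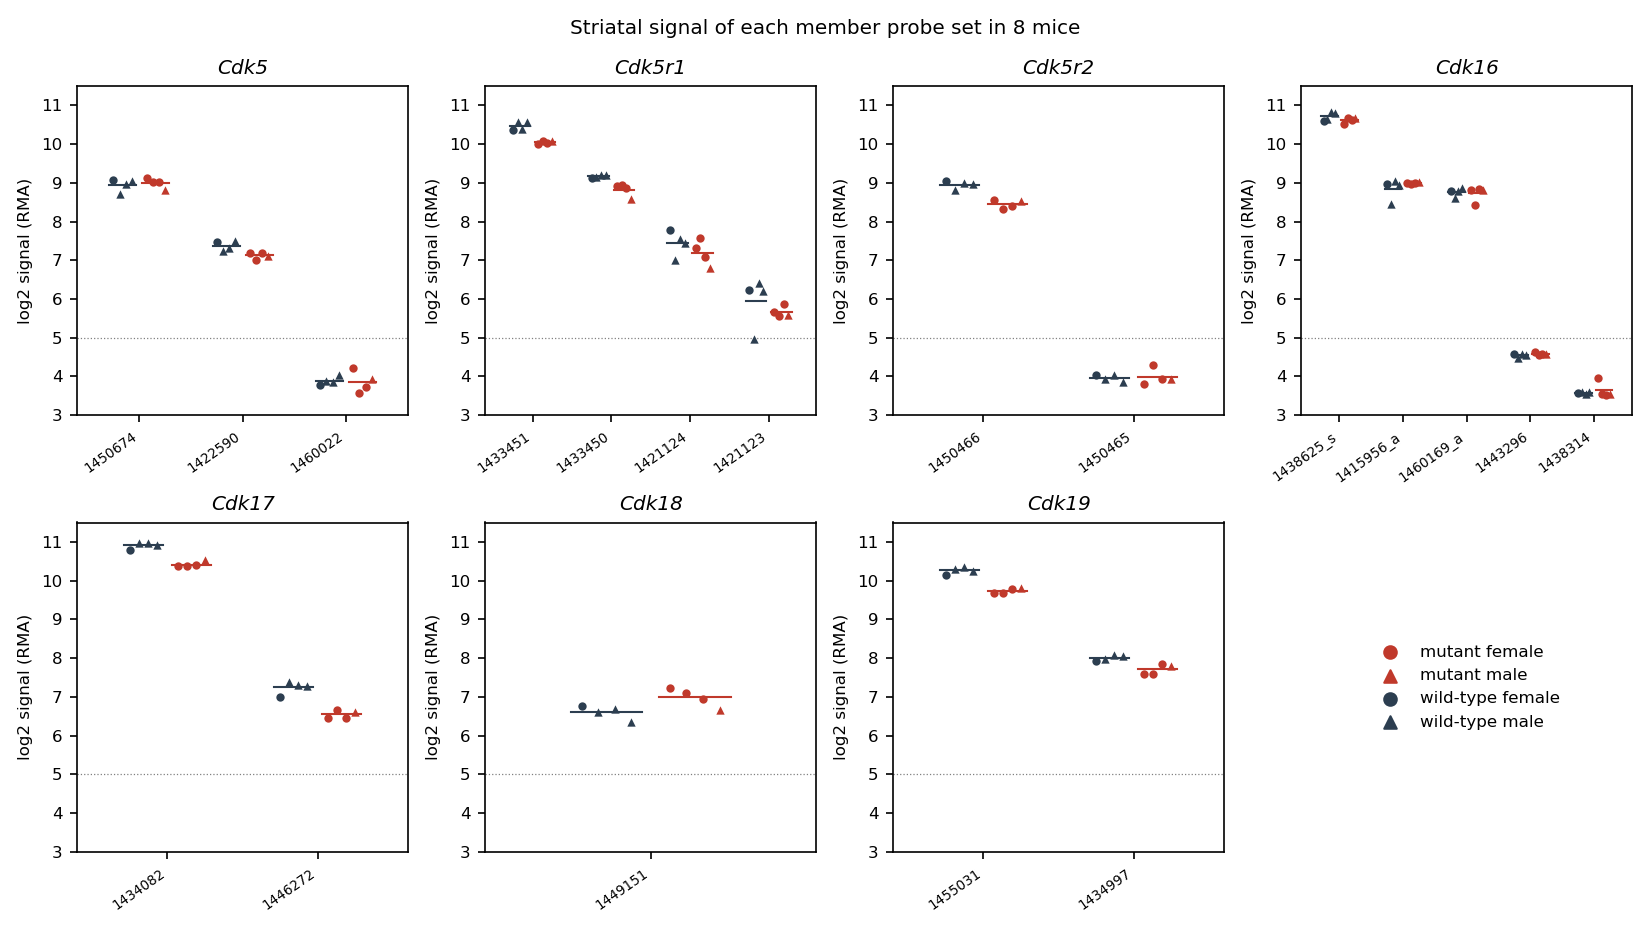
Log2 RMA signal of each of the 19 probe sets in every mouse, with 1 panel per gene, mutants in red and wild type in dark blue, circles for females, triangles for males and horizontal bars for group means. The 4 mutants lie below the 4 wild-type mice in the brightest probe sets of Cdk5r1, Cdk5r2, Cdk17 and Cdk19, and the dotted line marks a signal of 5.

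The kinase itself, Cdk5, gave different pictures from its probe sets. The brightest, 1450674_at, read 9.12, 9.01, 9.02 and 8.80 in mutants 141, 153, 154 and 191, and 9.06, 8.71, 8.98 and 9.06 in wild-type mice 161, 170, 180 and 200. The groups overlapped throughout, and the sex-adjusted difference was -0.06 with a 95% interval of -0.28 to 0.16. The second probe set, 1422590_at, read 7.20, 7.01, 7.20 and 7.12 in the mutants in the same order and 7.48, 7.23, 7.31 and 7.50 in the wild type. Here every mutant lay below every wild-type mouse, by 0.25 between the means, although the gap between the groups was only from 7.20 to 7.23. This probe set was not among those past the threshold. Mouse 170 was the lowest wild-type animal in both 1450674_at and 1422590_at, and the part of RNA quality in these values was not tested. The third, 1460022_at, stayed between 3.57 and 4.21 and carries little information.

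The signal of Cdk5r1, the gene for p35, was lower in the mutants in both of its brighter probe sets. Probe set 1433451_at read 10.01, 10.08, 10.03 and 10.08 in mutants 141, 153, 154 and 191, a spread of less than 0.1, and 10.36, 10.58, 10.40 and 10.57 in wild-type mice 161, 170, 180 and 200. The group means were 10.05 ± 0.03 and 10.48 ± 0.11 (SD, n = 4 each), which is 25.6% less signal in the mutants, and the sex-adjusted difference was -0.38 ± 0.08 (SE). Probe set 1433450_at read 8.92, 8.94, 8.86 and 8.58 against 9.12, 9.15, 9.20 and 9.21, again with no overlap. Its lowest value was in the male mutant, mouse 191. The difference of the means was -0.34, and the sex-adjusted difference was -0.41. Without mouse 191 the sex-adjusted value was -0.21, but it then compares the female mutants with wild-type mouse 161 alone.

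The dimmer probe sets of Cdk5r1 overlapped between the groups, and in both the lowest wild-type value belonged to mouse 170. Probe set 1421124_at read 7.30, 7.57, 7.10 and 6.80 in the mutants and 7.79, 7.02, 7.55 and 7.44 in the wild type. The difference of its means was only -0.26. Adjusted for sex it was -0.50, and -0.57 without mouse 170. Probe set 1421123_at read 5.66, 5.57, 5.88 and 5.59 in the mutants and 6.22, 4.96, 6.40 and 6.22 in the wild type. Mouse 170 was the single wild-type animal below the mutants. The difference was -0.39 with all mice and -0.61 without it, and the part of RNA quality in these values was not tested. In the brightest probe sets of the genes past the threshold the mouse mattered less. Without it the differences were -0.36 for Cdk5r1, -0.53 for Cdk5r2, -0.41 for Cdk17 and -0.47 for Cdk19.

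Cdk5r2, the gene for p39, had 1 probe set well above background. Probe set 1450466_at read 8.55, 8.32, 8.41 and 8.53 in mutants 141, 153, 154 and 191 and 9.04, 8.81, 9.00 and 8.96 in wild-type mice 161, 170, 180 and 200. All mutants lay below all wild-type mice. The means were 8.46 ± 0.11 and 8.95 ± 0.10 (SD, n = 4 each), or 29.2% less signal, and the sex-adjusted difference was -0.50 ± 0.10 (SE). The other probe set, 1450465_at, stayed under 5 in every mouse, between 3.82 and 4.30. When the 2 were averaged, the difference shrank to -0.26 and the gene no longer passed the threshold.

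Of the 7 genes, RefSeq promoter windows on build GRCm38.p6 were matched for Cdk5r2, Cdk16 and Cdk18. They are shown because these 3 had a window, while the other 4, Cdk5, Cdk5r1, Cdk17 and Cdk19, had none. Of the genes past the threshold for a lower signal only Cdk5r2 is among them. The letters therefore cannot be compared between genes past the threshold and the rest. The table held 2 windows for Cdk16, and the outermost is given. Each window is given 5′ to 3′ on the gene's own strand and ends where the annotated gene begins. Cdk5r2 lies at chr1:74854779-74855028 on the plus strand, Cdk18 at chr1:132139699-132139935 on the minus strand, and Cdk16 at chrX:20687704-20687916 on the plus strand. Capitals mark matches on either strand to 3 short motifs. The GC box was searched as GGGCGG. The CRE half-site, which cAMP-responsive factors bind, was searched as TGACG. The third motif was the CCAAT box, searched by those letters.
Cdk5r2: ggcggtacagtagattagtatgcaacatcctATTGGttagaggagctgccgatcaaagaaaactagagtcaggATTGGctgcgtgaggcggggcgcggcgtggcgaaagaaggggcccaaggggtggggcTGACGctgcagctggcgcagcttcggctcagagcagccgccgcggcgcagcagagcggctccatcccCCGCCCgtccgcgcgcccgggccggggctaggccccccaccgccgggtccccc
Cdk18: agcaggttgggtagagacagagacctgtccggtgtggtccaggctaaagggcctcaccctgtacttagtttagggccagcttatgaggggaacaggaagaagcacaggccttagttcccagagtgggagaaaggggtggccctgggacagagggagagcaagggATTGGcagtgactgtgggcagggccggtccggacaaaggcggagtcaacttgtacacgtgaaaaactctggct
Cdk16: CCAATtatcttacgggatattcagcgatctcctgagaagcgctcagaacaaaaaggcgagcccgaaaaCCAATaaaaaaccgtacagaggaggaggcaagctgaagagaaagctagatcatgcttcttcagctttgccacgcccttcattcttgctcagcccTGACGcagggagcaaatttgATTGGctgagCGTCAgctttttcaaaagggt

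The Cdk5r2 window was the richest in G and C, at 68.8%, against a median of 52.4% for windows of its length. The Cdk18 window had 57.4% and the Cdk16 window 47.9%. Cdk5r2 held 1 GC box, found in 32.7% of all 32851 promoter windows cut to the same length, 2 CCAAT boxes (33.8%) and 1 CRE half-site (17.8%). Cdk18 held 1 CCAAT box (32.8%). Cdk16 held 3 CCAAT boxes (30.2%) and 2 CRE half-sites (14.3%). A TATA box, searched as TATAAA, was found in 0 of the 3 windows and in 12.4% of all at the length of the Cdk5r2 window. An Egr site, searched as GCGNGGGCG, was found in 0 of the 3 and in 4.7% of all. These matches describe the letters of the windows only.

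Among the PCTAIRE kinases the 3 genes differed in their pattern. Cdk17, a family member long known from brain, was lower in the mutants in both of its probe sets. Probe set 1434082_at read 10.36, 10.37, 10.39 and 10.53 in mutants 141, 153, 154 and 191 and 10.78, 10.96, 10.97 and 10.93 in wild-type mice 161, 170, 180 and 200. The 3 female mutants were nearly identical and the male mutant was higher, yet still below the lowest wild-type mouse. The means were 10.41 ± 0.08 and 10.91 ± 0.09 (SD, n = 4 each), a 1.41-fold difference, and the sex-adjusted difference was -0.41 ± 0.07 (SE). Probe set 1446272_at read 6.46, 6.67, 6.46 and 6.61 against 6.99, 7.39, 7.31 and 7.28. The difference of its means, -0.69, had the largest size among the 19 probe sets.

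Cdk16 showed no separation in any probe set. Probe set 1438625_s_at read 10.51, 10.66, 10.63 and 10.67 in the mutants and 10.59, 10.64, 10.83 and 10.81 in the wild type, and the sex-adjusted difference was -0.04 with a 95% interval of -0.23 to 0.16. The suffix of this probe set means that it can share probes with other transcripts. Probe set 1415956_a_at read 9.00, 8.97, 9.00 and 9.03 against 8.96, 8.46, 9.04 and 8.94, with the low value again in mouse 170. Its difference was 0.12, and 0.03 without that mouse. Probe set 1460169_a_at read 8.81, 8.44, 8.85 and 8.82 against 8.79, 8.60, 8.78 and 8.87. Groups overlapped in each, and the remaining 2 probe sets stayed under 5.

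Cdk18 was the one gene of the 7 whose sex-adjusted difference was above 0. Its single probe set, 1449151_at, read 7.24, 7.09, 6.95 and 6.67 in mutants 141, 153, 154 and 191 and 6.77, 6.62, 6.68 and 6.36 in wild-type mice 161, 170, 180 and 200. The 3 female mutants were the highest, the male mutant lay inside the wild-type range, and in the wild type the female was the highest. The means were 6.99 ± 0.24 and 6.61 ± 0.18 (SD, n = 4 each), a difference of 0.38. Adjusted for sex it was 0.22 with a 95% interval of -0.03 to 0.47. Without wild-type mouse 161 the adjusted value was 0.12, and without mutant 191 it was 0.32. In a fit without sex and without mouse 191, which leaves 3 female mutants against 1 female and 3 male wild-type mice, it was 0.49 and Cdk18 was counted as higher at the threshold.

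Cdk19, the Mediator kinase, was lower in the mutants in both probe sets. Probe set 1455031_at read 9.68, 9.67, 9.78 and 9.81 in mutants 141, 153, 154 and 191 and 10.15, 10.29, 10.34 and 10.25 in wild-type mice 161, 170, 180 and 200. The groups were apart by more than 0.3, with means of 9.73 ± 0.07 and 10.26 ± 0.08 (SD, n = 4 each). That is 30.6% less signal, and the sex-adjusted difference was -0.47 ± 0.08 (SE). Probe set 1434997_at read 7.59, 7.58, 7.86 and 7.80 against 7.92, 7.98, 8.07 and 8.05. It was lower in every mutant as well, but by less, -0.30 between the means, and was not past the threshold.

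**Figure D2:**
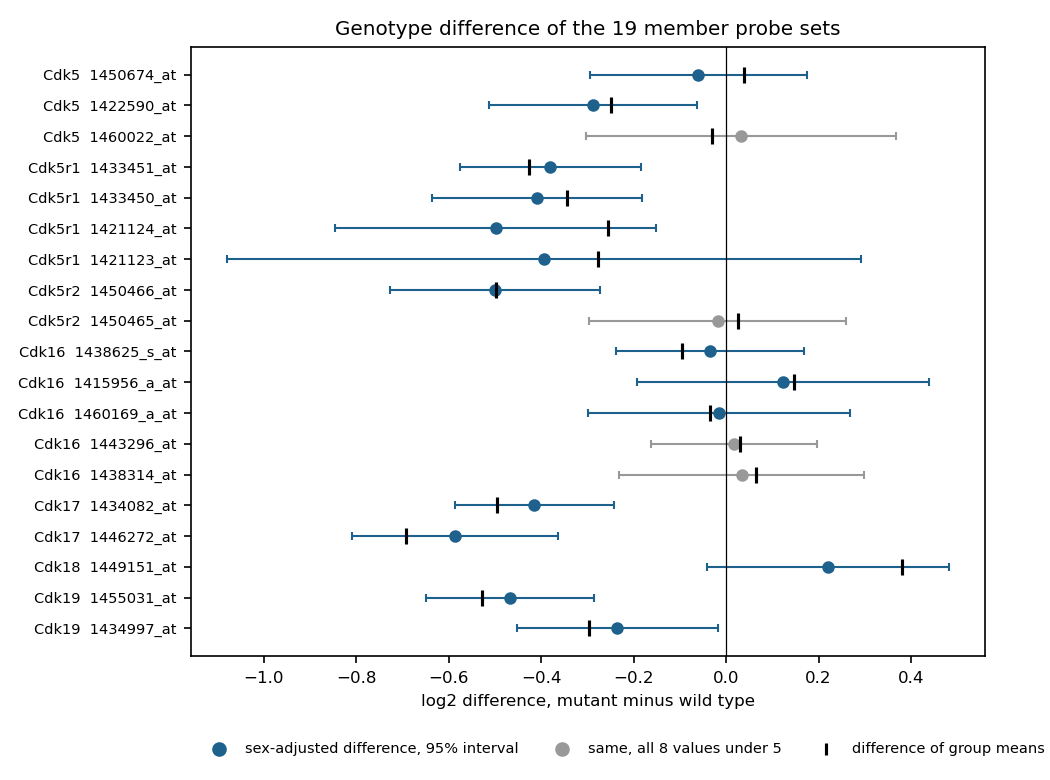
Mutant minus wild-type log2 difference of each of the 19 probe sets, with dots for the sex-adjusted value, bars for its 95% interval, grey for probe sets under 5 in all mice and black ticks for the plain difference of the means. Both probe sets of Cdk17 and of Cdk19 lie to the left of 0, the brightest probe set of Cdk5 lies near 0, and for Cdk18 the plain difference of 0.38 exceeds the adjusted 0.22.

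Sex was a contrast that the choice of genes had not used, and it could be tested. In the limma fit 0 of the 7 genes passed the threshold between females and males, with 1, Cdk18, at an unadjusted p under 0.05. Over all genes 5 passed, or 0.0275%, and 1932 had an unadjusted p under 0.05. Of the 19 probe sets 0 passed for sex, and 2 had an unadjusted p under 0.05, that of Cdk18 and 1421124_at of Cdk5r1. Cdk18 was 0.32 ± 0.11 (SE) higher in females, with an adjusted p of 0.385 in limma. A test of whether the genotype difference itself varied with sex found 0 of the 7 genes past the threshold and 0 at an unadjusted p under 0.05. Over all genes 1 passed, or 0.0055%, and 917 had an unadjusted p under 0.05. This test rests on 1 mouse in each of 2 of the 4 combinations of sex and genotype. It used the brightest probe set of each gene. In the dimmer Cdk5r1 probe set 1433450_at, the genotype difference in females minus that in males was 0.40 ± 0.16 (SE). For the 4 genes every mutant lay below every wild-type mouse, so the difference within each sex had to be below 0. The values by sex therefore give sizes only, each with 1 mouse on one side. Female mutants minus the female wild-type mouse gave -0.32 for Cdk5r1, -0.61 for Cdk5r2, -0.40 for Cdk17 and -0.44 for Cdk19. The male mutant minus the male wild-type mice gave -0.44, -0.39, -0.43 and -0.49 in the same order.

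Markers of cell types were read beside these values, since in bulk tissue fewer cells of a type and less RNA per cell cannot be told apart. All 9 measured medium spiny neuron markers fell in the mutants, and 0 of them lay under 5 in all mice. Their summed linear signal ran from 12383 to 14216 in the mutants and from 32220 to 36174 in the wild type. The most abundant of them, the substance P precursor gene Tac1, fell 1.27-fold (adjusted p = 0.0294, limma). Of 8 pan-neuronal markers, led by the synaptic gene Snap25, 0 passed the threshold, and their sums overlapped at 21772 to 23669 in the mutants and 21155 to 23819 in the wild type. The part of the medium spiny neurons in the lower signals of Cdk5r1, Cdk5r2, Cdk17 and Cdk19 was not tested.

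The remaining lists moved less. Of 8 interneuron markers 2 fell, and the mean centred level ran from -0.17 to -0.02 in the mutants and from 0.02 to 0.08 in the wild type. The 6 endothelial and mural markers had 0 past the threshold, with a level of -0.14 to -0.03 in the mutants and -0.02 to 0.15 in the wild type. On this mean centred level these 2 lists, like the medium spiny neuron list, had groups that did not overlap. Of 8 astrocyte markers 1 rose, and their mean centred levels overlapped, at -0.07 to 0.05 in the mutants and -0.06 to 0.10 in the wild type. Their summed linear signal did not overlap and was lower in the mutants, at 13773 to 15348 against 15425 to 16989. The part of these 3 lists in the result was not tested either. Of 7 oligodendrocyte markers 1 rose and 1 fell. The lists for oligodendrocyte precursors (4 genes), microglia (8 genes) and cortical neurons (5 genes) had 0 past the threshold. Cortical markers varied widely inside the groups, from -0.86 in mouse 191 to 0.85 in mouse 154, and their summed linear signal was at most 788.

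**Figure D3:**
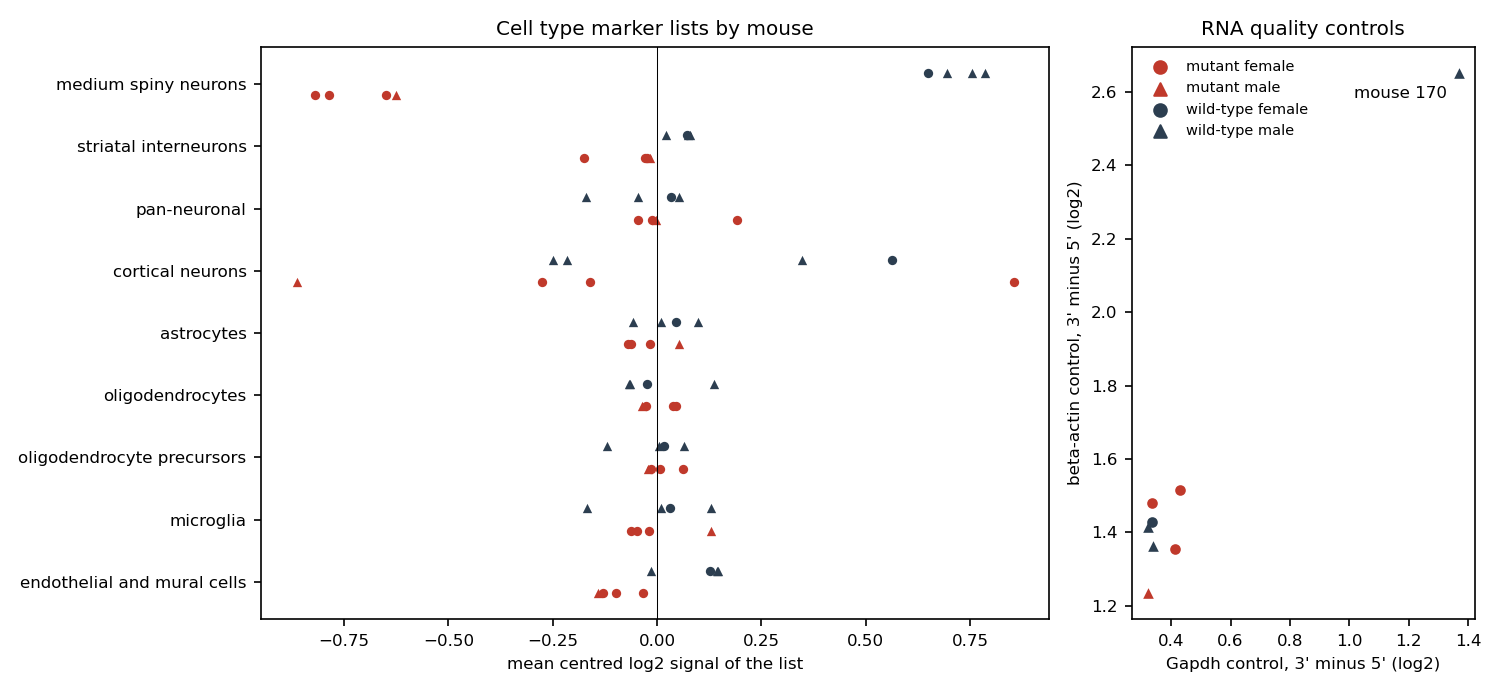
Left, mean centred log2 signal of each cell type marker list in every mouse, and right, the 3′ minus 5′ log2 difference of the beta-actin control against that of the Gapdh control. The medium spiny neuron list runs from -0.82 to -0.63 in the mutants and from 0.65 to 0.78 in the wild type, and mouse 170 stands alone at 1.37 and 2.65.

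Other genes of the Cdk5 pathway were read from the same limma fit over all genes. Their lists were drawn up with results of these data known, so the counts describe the lists and are not independent evidence about them. Over all genes 6.01% fell and 6.4% rose past the threshold. The shares were 22% and 9.76% of the measured substrates, and 7.69% and 12.8% of the measured genes in the other lists together. Of 15 further regulators of Cdk5, 2 fell and 2 rose, and the median difference was 0.10. The largest change was in Cast, which encodes calpastatin, the inhibitor of the calpains that cut p35. Its signal read 7.04, 6.69, 6.79 and 7.12 in mutants 141, 153, 154 and 191 and 5.00, 4.97, 5.31 and 5.35 in wild-type mice 161, 170, 180 and 200. All mutants were higher, and Cast rose 3.68-fold (adjusted p = 1.55e-05), with wild-type values close to 5, so the exact fold rests on dim signal. The mean of its 3 probe sets rose too, by 1.14 on the log2 scale. Capn1, a calpain subunit gene, differed by -0.21 ± 0.19 (SE) after adjustment for sex, with overlapping groups (adjusted p = 0.578). The plain difference of its means was 0.03, and the adjusted value was -0.09 without mutant 191, -0.12 without mutant 154, -0.32 without mutant 153 and -0.33 without wild-type mouse 161.

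Cdk5rap3, which encodes a protein that binds p35, fell 1.40-fold (adjusted p = 0.00991), with mutants at 7.08 to 7.44 and wild-type mice at 7.71 to 7.83. Without mutant 191 its difference, then that among the females only, was -0.28 and no longer passed. Cables1, whose product links Cdk5 to the Abl kinase, fell 1.53-fold (adjusted p = 0.0145), yet mutant 153 at 7.43 lay inside the wild-type range of 7.28 to 7.58, and the call was lost in 6 of 19 alternative analyses. Ccni, a cyclin gene, rose 1.27-fold (adjusted p = 0.0482). That call was lost in 11 of 19 alternatives, and 1 of its 4 probe sets pointed the other way at an unadjusted p under 0.05.

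Of 46 substrates of Cdk5 listed, 41 were measured, of which 9 fell, 4 rose and the median difference was -0.01. Drd2, the dopamine D2 receptor, fell most. It read 9.14, 8.84, 8.79 and 8.87 in mutants 141, 153, 154 and 191 and 10.30, 10.29, 10.36 and 10.33 in wild-type mice 161, 170, 180 and 200. The wild-type mice were within 0.1 of one another and no mutant came near them, a 2.68-fold fall (adjusted p = 2.56e-05). Ppp1r1b read 11.22, 10.96, 10.94 and 11.13 in the mutants and 12.05, 11.99, 12.21 and 12.22 in the wild type, a 2.02-fold fall (adjusted p = 0.000207). Both genes also stand in the list of medium spiny neuron markers.

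Other substrates fell with groups fully apart. Ppp1r1a, an inhibitor of protein phosphatase like Ppp1r1b, fell 1.80-fold (adjusted p = 0.000162). Ngef, which encodes ephexin, fell 1.77-fold (adjusted p = 0.000269). Kalrn, an exchange factor of dendritic spines, fell 1.94-fold (adjusted p = 0.000614). Of the 8 Kalrn probe sets 1 pointed the other way at an unadjusted p under 0.05, and their mean fell by 0.50 rather than 0.95. Outside the rule for named genes, and chosen after their values were seen, the 4 substrates that rose were Dpysl3 (1.60-fold), a collapsin response mediator, Dnm1l (1.21-fold), the mitochondrial fission GTPase, Nefh (1.31-fold), the heavy neurofilament, and Prdx2 (1.24-fold), a peroxiredoxin.

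**Figure D4:**
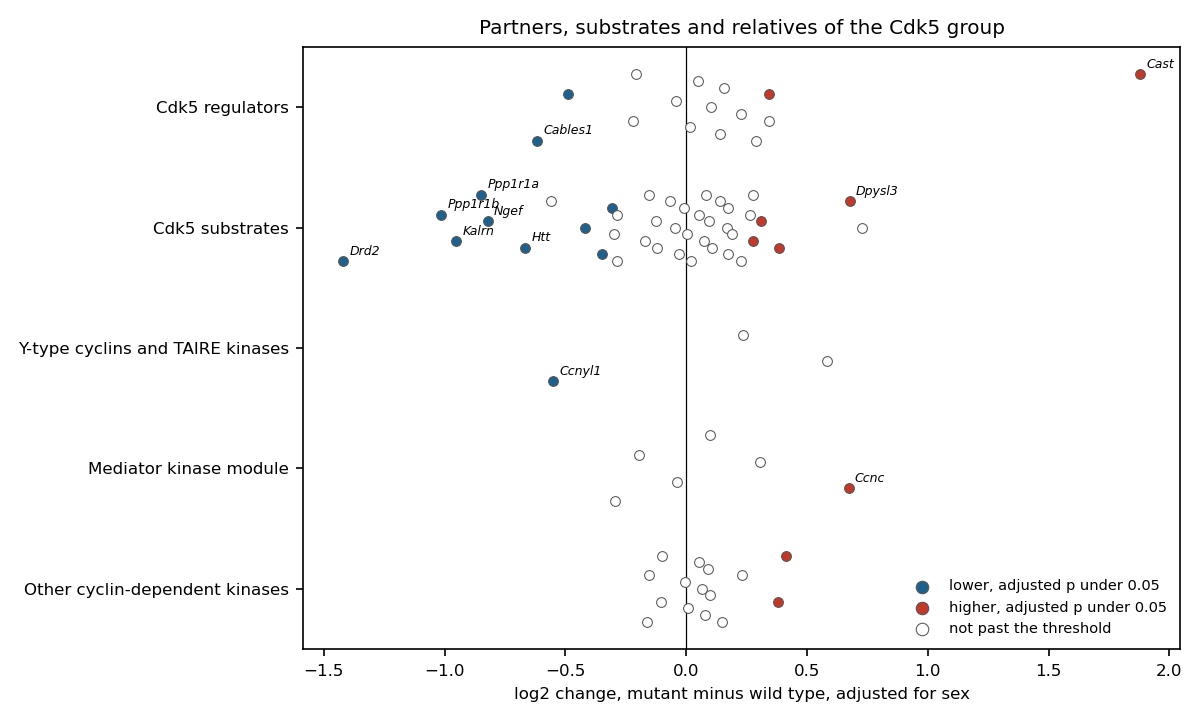
Sex-adjusted log2 change, mutant minus wild type, of every measured gene in 5 lists around the Cdk5 group, with filled points for genes past the threshold. The substrates spread from -1.42 for Drd2 upward with 9 filled points below 0 and 4 above, Cast stands alone at 1.88, and the other cyclin-dependent kinases cluster near 0.

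The list of Y-type cyclins and further kinases related to the PCTAIRE family had 3 of 4 genes measured. Of these, 1 was lower and 0 were higher, with a median difference of 0.24. Ccnyl1, a relative of cyclin Y, read 7.50, 7.46, 7.50 and 7.63 in the mutants and 8.08, 8.32, 8.04 and 8.04 in the wild type. It fell 1.47-fold (adjusted p = 0.00399), a call lost in 1 of 19 alternatives, without mouse 161. Ccny, cyclin Y itself, differed by 0.24 ± 0.11 (SE) with overlapping groups (adjusted p = 0.232). Its value was 0.08 without mutant 191, 0.39 without wild-type mouse 161 and 0.03 as the mean of its probe sets. Cdk14, a related kinase that also binds cyclin Y, differed by 0.58 ± 0.19 (SE) and did not pass (adjusted p = 0.0747), although it passed in 4 of 19 alternatives.

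In the Mediator kinase module 0 of 6 genes fell and 1 rose, with a median difference of 0.03. Cdk8, the paralogue of Cdk19, read 7.99, 8.17, 7.94 and 8.09 in the mutants and 8.36, 8.49, 8.34 and 8.26 in the wild type. Every mutant was below every wild-type mouse, but the difference of -0.30 ± 0.09 (SE) did not pass (adjusted p = 0.0699), and it passed in 6 of 19 alternatives. Ccnc, the cyclin partner of both kinases, rose 1.59-fold by its brightest probe set (adjusted p = 0.000682). Of its 5 probe sets 3 pointed the other way, and the mean of all 5 differed by 0.11 and did not pass.

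Among 15 other cyclin-dependent kinases 0 fell and 2 rose, with a median difference of 0.07. Cdkl2, a cyclin-dependent kinase-like gene, rose 1.33-fold (adjusted p = 0.0086), a call lost in 3 of 19 alternatives. These were the mean of its 3 probe sets, at 0.22, and the fits without mutant 191, at 0.37, and without wild-type mouse 161, at 0.45. Cdk12, a kinase of the RNA polymerase tail, rose 1.30-fold (adjusted p = 0.0435) with overlapping groups, a call lost in 13 of 19 alternatives.

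The genes whose values over the 8 mice ran closest to those of the 3 members with the largest difference of means were found by the root mean square difference of mean-centred signals. For Cdk17 these were Efnb2, an ephrin ligand, at 0.035, Cetn4, a centrin, at 0.037 and Ndfip2, an adaptor of ubiquitin ligases, at 0.043. For Cdk19 they were Ndfip2 at 0.047, Slc9a3r1, a scaffold protein, at 0.049 and Fn3k, a fructosamine kinase, at 0.057. For Cdk5r2 they were Cyp46a1, the cholesterol hydroxylase of neurons, at 0.047, Msmo1, an enzyme of cholesterol synthesis, at 0.055 and Ric8b, a G protein chaperone, at 0.055. Ndfip2 was near both Cdk17 and Cdk19. Its mutants lay between 9.74 and 9.89 and its wild-type mice between 10.17 and 10.33. All of these close genes had lower means in the mutants, with differences from -0.44 for Ndfip2 to -0.54 for Ric8b. The genotype difference, on which the members were chosen, thus enters the distance, and shared regulation was not tested.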

How the data were processed

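Striatal RNA of 8 mice, extracted with TRIzol and RNeasy columns and biotin-labelled by in vitro transcription per the labels' protocols, was hybridised to Affymetrix Mouse Genome 430 2.0 arrays. The deposited values are log2 signals per probe set, made by the authors with RMA and affy per the submitters' processing notes; their versions are not stated in any source used. RMA gives the arrays a common distribution, so a shift shared by most genes cannot be seen, and compresses differences of dim genes. No probe-level depth exists for arrays, and their number limits the precision.

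Of 45101 probe sets, 64 controls were left out. Of the rest, 34945 had 1 symbol, 932 had several and 9160 were unlisted; the last 2 kinds were not named. For a gene with several single-symbol probe sets, the brightest on average stood for it. limma 3.58.1 in R 4.3.3 was fitted with genotype and sex, with Benjamini-Hochberg adjustment over all genes, or over all probe sets, and a threshold of 0.05. Log2 differences are mutant minus wild type, and folds come from the sex-adjusted value unless means are named. The script was tested on simulated data. P-values rest on the spread between separate mice.

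The members, the gene lists and the rule for named genes were chosen with earlier results of these data known. The rule named all 7 members with every probe set; the 5 lowest adjusted p past the threshold of each pathway list; Ppp1r1b, Htt, Cast, Ccny, Cdk8, Cdk14 and Capn1; the 3 closest genes for 3 members; and the most abundant marker of a described cell type list. Of 87 pathway genes 80 were measured; the others were not analysed here. Alternatives were a fit without sex, another variance prior, renormalization, median centring, removal of dim features, a floor, an average over the probe sets of each gene, array weights, other thresholds and each mouse left out. Fits without sex and without mouse 161, 191 or 170 were added after seeing the data.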

Additional observations from a re-analysis of the deposited data

Results flagged for a closer look

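Of 38 groups of 4 values, 1 for each probe set and genotype, 4 held a mouse far from the other 3, where chance gives about 1 in 20. In Cdk5r1 probe set 1421123_at, wild-type mouse 170 read 4.96 and the others 6.22 to 6.40. In Cdk16 probe set 1460169_a_at, mutant 153 read 8.44 and the others 8.81 to 8.85. In the dim Cdk16 probe set 1438314_at, mutant 141 read 3.95 and the others 3.53 to 3.56. In Cdk17 probe set 1434082_at, the male mutant 191 read 10.53 and the 3 female mutants 10.36 to 10.39.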

How the results depend on the processing

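The direction of the difference of Cdk5r1, Cdk5r2, Cdk17 and Cdk19 was the same in all 19 alternatives. Their groups did not overlap, so leaving out a mouse or the sex term could not have turned it. No result that passed a threshold turned its sign. At an adjusted p under 0.01 the count of genes past it went from 2258 to 1029, that of member probe sets from 6 to 2, that of Cdk5 substrates from 13 to 7 and that of the other pathway genes from 8 to 5. The last count was also 5 with a floor at log2 of 32 and 4 with an average over the probe sets of each gene. With each mouse left out in turn, genes past the threshold ranged from 702 (without mouse 191) to 2258, member genes from 1 to 4, member probe sets from 0 (without mouse 191) to 7, Cdk5 substrates from 6 to 11 and other pathway genes from 3 to 7. Without mouse 161 there were 864 genes, 2 member probe sets and 7 substrates. Without mouse 180 or 200 there were 8 substrates. Leaving out 161 or 191 leaves 1 genotype with a single sex. With the sex term kept, the fit then gives the difference among males (without 161) or among females (without 191). For Cdk5r1, Cdk5r2, Cdk17 and Cdk19 these are the values by sex given above, not separate results. In fits without the sex term, 13.2% of all genes passed without mouse 161 and 13.7% without mouse 191. The lower counts were not tested further. Of member genes, 119 of 133 values across alternatives stayed within the reported spread and 14 moved. This count compares sizes only, and some of the 119 lost their call. Without mouse 191 these were Cdk5r1, Cdk17 and Cdk19. Of named pathway genes, 36 of 340 values lost and 10 gained a call. Counts of members past the threshold for sex or its interaction with genotype stayed at 0 wherever fitted; the interaction was not run with a mouse left out. No paired analysis was possible because no mouse number is shared between the groups. With 1 array per mouse, probe sets under 5 set no order.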
